A study of Mus musculus with 12 samples.

Results

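The 7 genes described here encode sarcomeric myosin heavy chains of skeletal muscle: Myh4, Myh1, Myh2, Myh7, Myh7b, Myh3 and Myh8. They were taken by name from 49315 genes counted in each of 12 libraries, and all 7 were among the 15304 genes with enough counts to be tested. Each gene is given as a level in every library and as a share of the summed counts of the 7 genes in that library.

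The RNA came from the quadriceps femoris, the thigh muscle that straightens the knee, and was sequenced as 3 libraries in each of 4 groups of inbred C57BL/6 mice. The young were 18 weeks of age and the old 28 months, and no genetic change or drug is named for any group. At each age the sedentary group had no set running, whereas the exercised group ran on a treadmill for 8 weeks in 3 sessions a week of 40 minutes, with the speed raised from 8 to 12 m/min. The series title places these mice in a study of ARNT, a partner of hypoxia-inducible and other transcription factors, and of how aged muscle adapts to exercise. Neither sex nor the number of animals behind a library is stated in the labels, so every p-value measures the spread between these libraries. How much of that spread is technical is not known. Levels are in normalised CPM, counts relative to the library total after TMM scaling, a trimmed-mean correction for library composition.

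A muscle fibre shortens when the heads of myosin heavy chains pull on actin, and the isoform a fibre carries largely sets how fast it shortens and how much ATP it spends. In adult mouse limb muscle Myh4 (type IIB), Myh1 (IIX) and Myh2 (IIA) are the fast isoforms, in falling order of speed, and Myh7 is the slow, type I isoform that is also the beta chain of the heart. Myh7b is an ancient relative of Myh7 that is read mainly in spindle fibres, extraocular muscle and heart. Myh3 (embryonic) and Myh8 (perinatal) belong to developing and regenerating fibres. The fast and developmental genes lie head to tail in 1 cluster, and neighbouring genes in it can be switched on in a coordinated or alternating way.

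In the deposited coordinates, which use the mouse genome GRCm38, the cluster occupies chromosome 11, where Myh3 (67078300 to 67102291), Myh2 (67171027 to 67197517), Myh1 (67200052 to 67224575), Myh4 (67238029 to 67260446) and Myh8 (67277124 to 67308634) follow each other on the plus strand. Myh7 lies on chromosome 14 (54970688 to 54994634, minus strand) and Myh7b on chromosome 2 (155611212 to 155634307, plus strand). The sequences below are shown because the 3 adult fast genes, of which Myh1 and Myh2 varied together between libraries and Myh4 against them, carry the same run of letters in their promoters. They come from RefSeq, build GRCm38.p6, plus strand, 5′ to 3′, and the capitals mark a run of 14 bases, TTCTAATTATATCC, that a search found in the 250 bases upstream of the start of Myh2, Myh1, Myh4 and Myh8. The 99-base stretches are chr11:67170842-67170940 for Myh2, chr11:67199882-67199980 for Myh1, chr11:67237594-67237692 for Myh4 and chr11:67277010-67277108 for Myh8.
Myh2: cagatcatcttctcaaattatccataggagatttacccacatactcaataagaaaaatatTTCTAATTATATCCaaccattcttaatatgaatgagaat
Myh1: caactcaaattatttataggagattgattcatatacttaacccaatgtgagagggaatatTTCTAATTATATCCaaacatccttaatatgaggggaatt
Myh4: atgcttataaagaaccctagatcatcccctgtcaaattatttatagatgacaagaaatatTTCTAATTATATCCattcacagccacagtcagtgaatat
Myh8: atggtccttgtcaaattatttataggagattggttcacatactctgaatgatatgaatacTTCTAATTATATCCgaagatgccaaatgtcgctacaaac

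The run begins 125 bases upstream of the RefSeq start of Myh2, 160 upstream of Myh1, 158 upstream of Myh4 and 54 upstream of Myh8. The run was defined as letters that these 4 windows share, so their holding it was fixed in advance. Among 32851 upstream windows of the same length, searched on both strands, those 4 alone held it (0.0122%). Placed on that run, the stretches of Myh2 and Myh1 are identical at 54 of 99 positions, and those of Myh2 and Myh8 at 53. Myh4 matches both Myh1 and Myh2 at 47 positions, and Myh8 matches both Myh1 and Myh4 at 41. The bases of the run itself are included in each number. The letters TATAAAA, searched as a core promoter element, stand 29 bases upstream of the start of Myh3, 32 upstream of Myh1 and 31 upstream of Myh4. They were found in 4.98% of all windows and not in those of Myh2, Myh8, Myh7 or Myh7b. A match describes the letters only.

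Libraries held between 23271406 and 27632520 counts, and the 7 genes took 5.95% to 8.37% of them. The 95% Wilson interval of the Myh4 share was at most 0.126 percentage points wide, against an SD of 5.47 points over the 12 libraries. For the rare Myh8 the interval of the share was 0.00411 to 0.00553 points wide from end to end and the SD over the libraries 0.0033. A full 95% width spans several standard errors, so it cannot be set directly against an SD. Counting error was a larger part of the spread for Myh8 than for Myh4, but smaller than that spread. These intervals cover counting error only. The 6 markers that define muscle fibres (Ckm, Acta1, Des, Ttn, Neb and Mb) summed to between 67588 and 78636 CPM, and none was at 0 in any group. Some libraries stood apart in markers of other tissue. The 5 skin markers summed to 478 CPM in young sedentary library 2 and to at most 4.17 CPM elsewhere, and the 6 fat-cell markers reached 2169 CPM in young sedentary library 1 and 1758 CPM in old exercised library 6 against at most 461 CPM in the others. Macrophage and B-cell markers also peaked in old exercised library 6, at 345 CPM against at most 69.5 CPM elsewhere. Xist is read from the inactive X chromosome of females and was looked up after its values were seen. It lay at 128 to 202 CPM in 5 libraries (young sedentary 1 and 3, young exercised 8 and 10, old exercised 4). In the other 7 it was at no more than 1.48 CPM. Old exercised library 4 was the only old one with a high level, so Xist level and age were partly confounded in the age comparisons.

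Myh4 dominated every library. It took 80.3% to 96.9% of the counts of the 7 genes, and per kilobase of exon it exceeded Myh1, Myh1 exceeded Myh2 and Myh2 exceeded Myh7 in 12 of 12 libraries. Over the 12 libraries the median level per kilobase was 10930 CPM for Myh4, 824 for Myh1 and 182 for Myh2. Below these the order was not fixed. The median per kilobase was 4.55 CPM for Myh7, 1.78 for Myh8, 1.02 for Myh3 and 0.330 for Myh7b, but Myh7 ranged from rank 4 to rank 7 and exceeded Myh8 in 7 of 12 libraries. Myh8 exceeded Myh3 in 9 libraries and Myh3 exceeded Myh7b in 11. The deposited exonic length of Myh8, 11772 bases, is the longest of the 7, which lowers its level per kilobase.

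**Figure D1:**
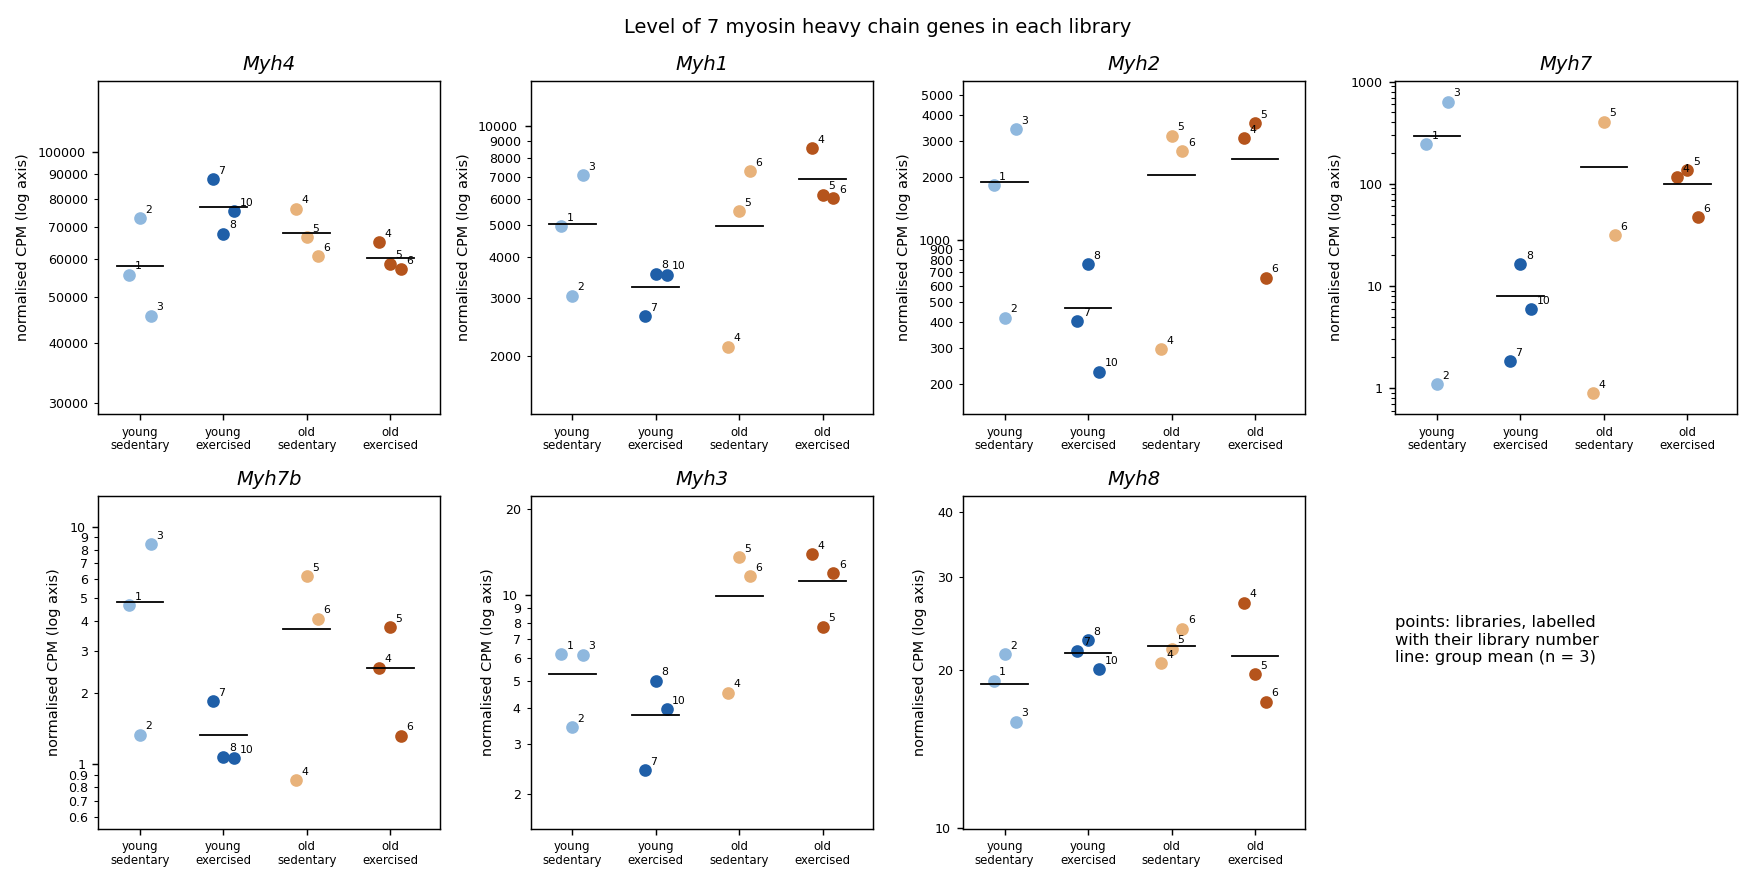
Normalised CPM (log axis, a different range in each panel) of each of the 7 genes in the 12 libraries, by group; points are libraries with their library number and lines are group means (n = 3). Myh7 spans 0.892 to 635 CPM while Myh8 stays between 15.9 and 26.8 CPM.

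Myh4 encodes the fastest isoform. In young sedentary muscle its level was 55653, 72880 and 45652 CPM in libraries 1, 2 and 3 (mean 58062 ± 13773, SD, n = 3), and in young exercised muscle 87921, 67617 and 75310 CPM in libraries 7, 8 and 10 (76949 ± 10251). Old sedentary libraries 4, 5 and 6 held 76266, 66585 and 60805 CPM (67885 ± 7812), and old exercised libraries 4, 5 and 6 held 64922, 58635 and 57009 CPM (60189 ± 4179). The exercised mean was thus above the sedentary one in young mice and below it in old mice, and at both ages the 2 groups overlapped.

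With exercise in young mice, Myh4 had a log2 fold change of 0.41 ± 0.166 (SE) with an adjusted p of 0.338 in edgeR's quasi-likelihood test, Benjamini-Hochberg adjusted over all 15304 genes. The old minus young difference between the exercise responses was −0.58 ± 0.234 on the log2 scale (adjusted p = 0.269). All 3 old exercised libraries lay below all 3 young exercised ones, and the log2 difference there was −0.35 ± 0.165 (adjusted p = 0.209). None of these passed the threshold of 0.05.

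By share, Myh4 made up 88.7%, 95.4% and 80.3% of the counts in young sedentary libraries 1, 2 and 3, and 96.6%, 93.9% and 95.2% in young exercised libraries 7, 8 and 10. It made up 96.9%, 87.9% and 85.9% in old sedentary libraries 4, 5 and 6, and 84.6%, 85.5% and 89.4% in old exercised libraries 4, 5 and 6. The young exercised shares spanned the narrowest range, whereas each sedentary group held 1 library near the top of the scale and others well below it. The mean share was 88.2% in sedentary and 95.3% in exercised young mice, and 90.2% and 86.5% in old mice, so averages over both ages or both treatments join differences of opposite sign. Exercised and sedentary libraries differed by 1.68 percentage points on average (two-sided exact permutation test within age, p = 0.62), and without young sedentary library 3 the difference was −0.279 points. Old and young libraries differed by −3.35 points (exact permutation p = 0.315), and by −0.165 points without young sedentary libraries 1 and 2 and old exercised library 6.

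**Figure D2:**
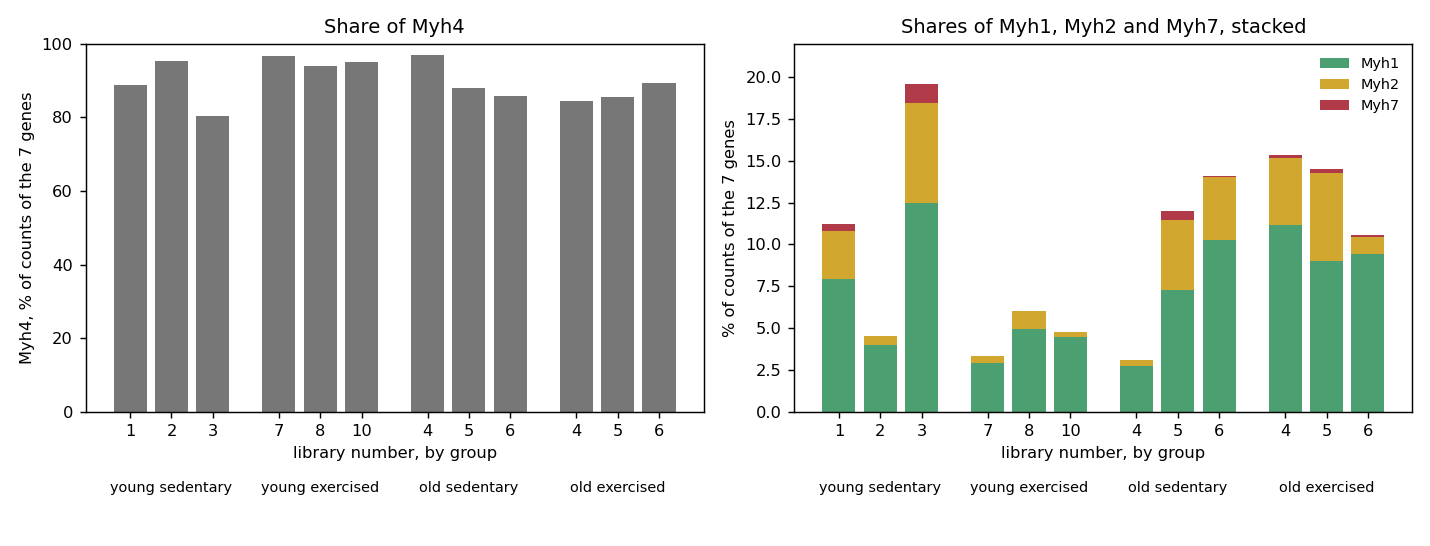
Share of the counts of the 7 genes taken by Myh4 (left) and, stacked, by Myh1, Myh2 and Myh7 (right, a narrower axis), in percent, with 1 bar for each library. Young sedentary library 2 carries a Myh4 share of 95.4%, the highest of its group (88.7% and 80.3% in libraries 1 and 3). Old sedentary library 4 carries 96.9%, well above libraries 5 and 6 of its group (87.9% and 85.9%).

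Myh1, the IIX isoform, was the next most abundant. Its level was 4961, 3046 and 7093 CPM in young sedentary libraries 1, 2 and 3 (5033 ± 2025) and 2641, 3559 and 3526 CPM in young exercised libraries 7, 8 and 10 (3242 ± 520). Old sedentary libraries 4, 5 and 6 held 2131, 5515 and 7277 CPM (4974 ± 2615), and old exercised libraries 4, 5 and 6 held 8558, 6178 and 6023 CPM (6920 ± 1421). Every old exercised library was above every young exercised one, with a log2 difference of 1.09 ± 0.421 that did not pass (adjusted p = 0.139). That call depended on the fit: with only the 2 exercised groups in the model the adjusted p was 0.0119. Without old sedentary library 4, the Myh1-poorest of all, the age difference averaged over both treatments was 0.73 on the log2 scale with an adjusted p of 0.0481, against 0.54 ± 0.295 and 0.238 with it (picked after the values were seen).

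Myh2, the IIA isoform of oxidative fast fibres, varied more. Young sedentary libraries 1, 2 and 3 held 1831, 421 and 3417 CPM (1890 ± 1499) and young exercised libraries 7, 8 and 10 held 403, 763 and 231 CPM (466 ± 271). In old sedentary libraries 4, 5 and 6 the level was 296, 3173 and 2662 CPM (2044 ± 1535), and in old exercised libraries 4, 5 and 6 it was 3089, 3636 and 655 CPM (2460 ± 1587). In each of the sedentary groups and in the old exercised group 1 library lay far below the other 2, and the groups overlapped in every comparison. The ratio of Myh1 to Myh2 counts ran from 1.70 to 15.3 over the libraries and was widest in young exercised library 10. Under DESeq2 alone Myh2 passed in 1 comparison, old against young exercised muscle, with a log2 difference of 2.40 and an adjusted p of 0.0353, where edgeR gave 2.40 ± 1.07 and 0.21 (also picked after the values were seen).

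The counts over all 7 genes were small. With exercise in young mice 0 of 7 passed the adjusted threshold in edgeR, beside 0.0131% of all tested genes, and 2 of 7 had an unadjusted p under 0.05, beside 13% of all. With exercise in old mice 0 of 7 passed (0.582% of all genes) and 0 of 7 had an unadjusted p under 0.05 (8.59%). For the difference between the responses these numbers were 0 of 7 (0.0523%) and 1 of 7 (15.4%), and for exercise averaged over both ages 0 of 7 (0.0457%) and 1 of 7 (6.95%). Old against young sedentary muscle also gave 0 of 7 (10% of all genes) and 0 of 7 at the unadjusted level (27.4%). DESeq2 and limma voom likewise called 0 of 7 in these 5 comparisons. Myh3 alone was called in old against young exercised muscle (1 of 7, beside 9.87% of all genes) and in the age difference averaged over both treatments (1 of 7, beside 19.1%). At an unadjusted p under 0.05 these comparisons held 2 of 7, Myh1 and Myh3 (24.7% of all genes), and 1 of 7, Myh3 (33%). A single call among 7 genes lies close to these background shares. Several of these comparisons share libraries, the young sedentary ones serving both the exercise and the age contrast, so their values stand side by side and are not independent.

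Groups that did not overlap were found for 4 of 7 genes between old and young exercised muscle, where 29.7% of all tested genes did not overlap: Myh1, Myh7 and Myh3 were higher in the old and Myh4 lower. In the other comparisons of 2 groups, 0 of 7 separated, beside 18.3% of all genes for exercise in young mice, 15.5% for exercise in old mice and 32.4% for age in sedentary mice. The median log2 fold change of the 7 genes was −0.63 with exercise in young mice and −0.06 with exercise in old mice, beside −0.01 and 0.01 over all genes.

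The fast-fibre partners are thin-filament, light-chain, calcium-handling and metabolic genes that accompany the IIB programme. With exercise in young mice 0 of 15 passed in edgeR, beside 0.0131% of all tested genes, and 3 of 15 in DESeq2. An unadjusted p under 0.05 was found for 11 of 15, beside 13% of all genes, and 15 of 15 had a positive log2 fold change (median 0.33). The 3 with the smallest p were Actn3 (0.49 ± 0.111, adjusted p = 0.166), which anchors actin at the Z-disc of fast fibres, Mybpc2 (0.48 ± 0.118, adjusted p = 0.197), the fast myosin-binding protein C, and Atp2a1 (0.37 ± 0.105, adjusted p = 0.246), the calcium pump of fast fibres. With exercise in old mice 0 of 15 passed (0.582% of all genes) and 2 had an unadjusted p under 0.05 (8.59%). The log2 fold change was negative in 14 of 15 (median −0.19). Between old and young exercised muscle 6 of 15 were called lower and 0 higher, beside 9.87% of all genes called in either direction. Between old and young sedentary muscle 1 of 15 was called higher and 0 lower, beside 10% of all genes. The sedentary difference was positive in 10 of 15 (median 0.14). In the exercised comparison Ampd1, the muscle AMP deaminase, fell by 0.95 ± 0.141 on the log2 scale (adjusted p = 0.00281), Casq1, the calcium store protein of fast fibres, by 0.82 ± 0.13 (adjusted p = 0.00367) and Pvalb, the calcium buffer parvalbumin, by 0.86 ± 0.148 (adjusted p = 0.00541). Leaving out any 1 of young exercised libraries 7, 8 or 10 or of old exercised library 5 gave 3 calls in place of 6.

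Myh7, the slow isoform, had the widest spread of the 7. Young sedentary libraries 1, 2 and 3 held 246, 1.09 and 635 CPM, that is 6073, 28 and 17172 counts, and young exercised libraries 7, 8 and 10 held 1.84, 16.4 and 5.88 CPM. Old sedentary libraries 4, 5 and 6 held 0.892, 407 and 31.2 CPM, and old exercised libraries 4, 5 and 6 held 116, 136 and 46.9 CPM. Within young sedentary muscle alone the highest library exceeded the lowest 580-fold. In bulk muscle, fewer slow fibres in the piece sampled and less Myh7 RNA per fibre cannot be told apart.

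The mean Myh7 level of sedentary muscle was 294 ± 319 CPM in the young and 147 ± 227 in the old, and that of exercised muscle 8.03 ± 7.50 and 99.5 ± 46.7. The SD was close to or above the mean in all but the old exercised group. Old exercised libraries lay above young exercised ones without overlap, yet the log2 difference of 3.63 ± 2.14 did not pass (adjusted p = 0.346). The Myh7 share of the counts of the 7 genes peaked at 1.12% in young sedentary library 3 and was 0.00113% in old sedentary library 4.

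Myh7b, the other slow-type gene, was read at 0.855 to 8.42 CPM, with 23 to 228 counts. Its level was 4.65, 1.33 and 8.42 CPM in young sedentary libraries 1, 2 and 3 and 1.84, 1.07 and 1.06 CPM in young exercised libraries 7, 8 and 10. Old sedentary libraries 4, 5 and 6 held 0.855, 6.18 and 4.08 CPM, and old exercised libraries 4, 5 and 6 held 2.54, 3.77 and 1.31 CPM. The log2 fold change with exercise was −1.86 ± 0.772 in young mice (adjusted p = 0.356) and −1.20 ± 0.533 averaged over both ages (adjusted p = 0.712). Neither passed, and in both the groups overlapped. Together with Myh6 and 3 other genes, Myh7b is also on the muscle spindle marker list, whose summed level in sedentary libraries was 12.4 to 19.0 CPM in the young and 4.89 to 12.7 in the old, and in exercised libraries 5.32 to 6.92 and 7.24 to 9.66. Its part in the Myh7b values was not tested.

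Myh7 and Myh7b each carry a microRNA in an intron. The mature sequences are shown from RefSeq, build GRCm38.p6, with the seed (bases 2 to 8) in capitals, because the pair has nearly the same seed. They are miR-208b-3p of Myh7 (chr14:54975710-54975731, minus strand) and miR-499-5p of Myh7b (chr2:155622893-155622913, plus strand).
miR-208b-3p: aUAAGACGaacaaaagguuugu
miR-499-5p: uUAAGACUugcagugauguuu

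The seeds are identical at 6 of 7 positions. Both microRNAs are known to act within the slow programme by lowering repressors of slow genes, Sox6 among them. The libraries do not measure mature microRNAs: the entries for the hairpin genes, Mir208b and Mir499, had at most 1 count in any library, and the antisense gene Mhrt, which shares 463 exonic bases with Myh7, had at most 4.

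Among the slow-fibre partners, 2 of 15 were called higher and 0 lower in old than in young exercised muscle, a share close to the 9.87% of all genes called there, and 15 of 15 had a positive log2 difference (median 2.34). In sedentary muscle 1 of 15 was called higher with age and 0 lower, beside 10% of all genes. The differences there were negative in 10 of 15 (median −0.70). With exercise in young mice 0 of 15 passed in edgeR (0.0131% of all genes) and 8 of 15 had an unadjusted p under 0.05 (13%). The log2 fold change was negative in 15 of 15 (median −2.42). With exercise in old mice 0 of 15 passed at either level, beside 0.582% and 8.59% of all genes, and 8 of 15 were positive. The 3 partners named next are those with the smallest p between old and young exercised muscle. Sln, sarcolipin, a brake on the calcium pump, rose by 6.67 ± 0.945 on the log2 scale (adjusted p = 0.0043) from 0.258 ± 0.161 CPM in young to 27 ± 18.4 CPM in old exercised muscle. Actn2, the Z-disc actinin of all fibre types, rose by 2.26 ± 0.416 (adjusted p = 0.0111), and Fabp3, a fatty acid carrier, differed by 1.19 ± 0.435 without passing (adjusted p = 0.124). With only the 2 exercised groups in the model 7 of 15 were called higher.

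Of 36 genes known to steer the choice between isoforms, 1 was called higher and 5 lower in old than in young exercised muscle, beside 9.87% of all genes. With exercise 0 of 36 were called in edgeR at either age, beside 0.0131% of all genes in young mice and 0.582% in old. At an unadjusted p under 0.05 there were 7 of 36 in young mice (13% of all genes) and 5 of 36 in old (8.59%). Between old and young sedentary muscle 4 of 36 were called higher and 0 lower, a share close to the 10% of all genes called there. In the exercised comparison Nfatc2, a calcineurin-dependent factor, was the 1 that rose, by 1.04 ± 0.201 on the log2 scale (adjusted p = 0.00917). Ppargc1a, the co-activator of mitochondrial and slow-fibre genes, fell by 1.13 ± 0.229 (adjusted p = 0.0132), with 101 ± 33.6 CPM in young against 45.8 ± 8.56 CPM in old exercised muscle, while in sedentary muscle it was at 35 ± 7.17 CPM in the young and 40.1 ± 3.02 CPM in the old. Mafa, a large Maf factor tied to Myh4, fell by 0.61 ± 0.138 (adjusted p = 0.0181). The number called lower was 1 without old exercised library 5, and also 1 without young sedentary libraries 1 and 2 and old exercised library 6. Leaving out young exercised library 7 or 8, or old exercised library 6, gave 2, and leaving out old exercised library 4 gave 3.

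Myh3, the embryonic isoform, was the member that rose with age. Its level was 6.19, 3.44 and 6.17 CPM in young sedentary libraries 1, 2 and 3 (5.27 ± 1.58) and 2.42, 5.01 and 3.98 CPM in young exercised libraries 7, 8 and 10 (3.8 ± 1.3). In old sedentary libraries 4, 5 and 6 it was 4.54, 13.6 and 11.6 CPM (9.91 ± 4.75), and in old exercised libraries 4, 5 and 6 it was 13.9, 7.74 and 11.9 CPM (11.2 ± 3.16). These values rest on 58 to 351 counts per library. Old sedentary library 4 lay within the young range, and the other 5 old libraries were above all 6 young ones.

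Averaged over both treatments, Myh3 was higher in old muscle by 1.23 ± 0.296 on the log2 scale (adjusted p = 0.0167). The difference was 1.56 ± 0.423 in exercised mice (adjusted p = 0.0427) and 0.91 ± 0.413 in sedentary mice, where it did not pass (adjusted p = 0.184, a value chosen after it was seen). Its share of the counts of the 7 genes was 0.0147% in old and 0.00665% in young libraries (two-sided exact permutation test within treatment, p = 0.02). Of the 14 share tests, 7 genes by exercise and by age, this was the 1 under 0.05 without adjustment.

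Both calls were sensitive to the libraries used. Without young sedentary libraries 1 and 2 and old exercised library 6, which carry the skin and fat-cell markers, the averaged log2 difference of Myh3 was 1.09 with an adjusted p of 0.18, and the difference in exercised mice was 1.5 with an adjusted p of 0.153. The share difference then had an exact permutation p of 0.175. With the filter on low counts removed the adjusted p values were 0.0565 averaged and 0.13 in exercised mice, and limma voom gave 0.0276 and 0.0621. The averaged call stood when any 1 library was left out (adjusted p up to 0.0425), whereas the call in exercised mice was lost without young exercised library 7, 8 or 10 or old exercised library 4 or 6 (adjusted p = 0.133, 0.0778, 0.116, 0.108 and 0.107). The exact permutation p of the share was 0.05 without young sedentary library 2, 0.06 without old sedentary library 5 and 0.055 without old sedentary library 6. With the Xist level as a covariate the averaged log2 difference was 1.68 (adjusted p = 0.0071).

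Myh3 stood among other genes of regenerating or denervated fibres. The list of such genes was chosen with earlier results of these data known. Of 18 tested, 11 were called higher and 1 lower in old muscle averaged over both treatments, beside 19.1% of all genes. Their median log2 difference was 0.96, beside −0.01 over all genes. The 3 with the smallest p rose: Myl4, the embryonic and atrial light chain, by 1.18 ± 0.158 (adjusted p = 0.000614), Ncam1, a cell adhesion molecule that spreads over denervated fibres, by 0.69 ± 0.0933 (adjusted p = 0.000654) and Chrna1, the acetylcholine receptor alpha subunit, by 0.98 ± 0.168 (adjusted p = 0.00281). Actc1, the actin of developing and cardiac muscle and the 1 called lower, was picked after its value was seen and fell by 2.62 ± 0.521 (adjusted p = 0.0098). In exercised mice 6 of the 18 were called higher and 1 lower (9.87% of all genes), and in sedentary mice 4 and 0 (10%). Without the 3 libraries high in skin or fat-cell markers 6 of 18 were called higher and 0 lower in the averaged comparison. In exercised mice the lower call was lost in 5 of 6 runs that left out 1 library, all but that without old exercised library 4. The number higher there was 3 without young exercised library 7 and 2 without young exercised library 8 or old exercised library 6, and in sedentary mice it was 1 without young sedentary library 1 or old sedentary library 5, 2 without young sedentary library 3 and 0 without old sedentary library 4.

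**Figure D3:**
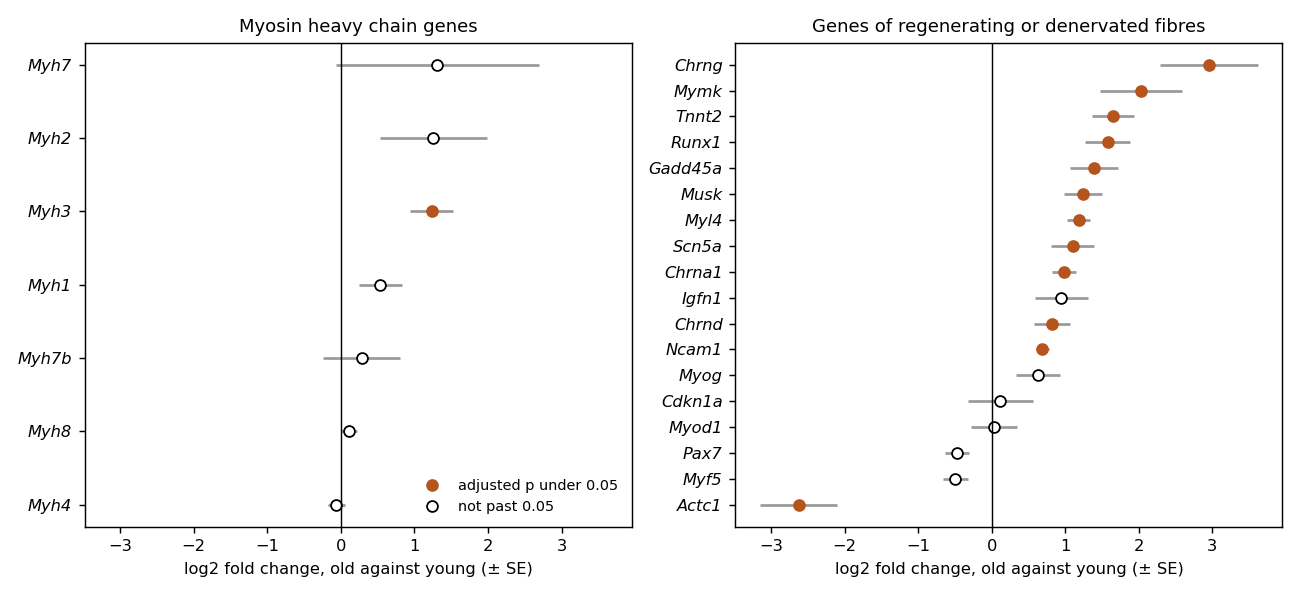
Log2 fold change of old against young muscle, averaged over both treatments (± SE), for the 7 myosin heavy chain genes (left) and 18 genes of regenerating or denervated fibres (right); filled points have an adjusted p under 0.05. On the left Myh3 alone is filled, and Myh2 and Myh7 have similar or larger fold changes with SEs of 0.732 and 1.38.

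Other cell markers differed between the ages beside Myh3. The 5 neuromuscular junction markers summed to 61.2 to 67.5 CPM in young and 95.6 to 139 CPM in old libraries, and Chrna1 and Musk are on both that list and the list of regenerating or denervated fibres. The 5 satellite cell markers, of muscle stem cells, summed to 32.0 to 49.1 CPM in young and 27.5 to 32.1 CPM in old libraries. The 6 fibroblast and tendon markers summed to 793 to 1312 CPM in young and 311 to 452 CPM in old libraries. No marker of these lists was at 0 in any group, and their part in the Myh3 difference was not tested.

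Myh8, the perinatal isoform, was the steadiest of the 7. It was read at 15.9 to 26.8 CPM, with means of 18.8 ± 2.75 and 22.1 ± 1.69 CPM in young and old sedentary muscle and of 21.5 ± 1.36 and 21.3 ± 4.94 CPM after exercise, and its highest and lowest libraries differed 1.68-fold. All of its comparisons overlapped, and the adjusted p ranged from 0.34 upward. In old and young muscle alike it exceeded Myh3 in counts, but per kilobase of exon it did so in 9 of 12 libraries. Per kilobase, Myh3 was the higher in old sedentary library 5 (2.24 against 1.86 CPM). The same held in old exercised libraries 4 (2.30 against 2.28 CPM) and 6 (1.97 against 1.48 CPM). The ratio of Myh8 to Myh3 counts ran from 2.58 to 8.97 in young and from 1.46 to 4.53 in old libraries.

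Reads can only be divided between the members where their sequences differ. Of all 50-base stretches of the annotated transcripts, 26.7% in Myh2, 24.8% in Myh1, 18.6% in Myh4 and 15.5% in Myh8 occurred unchanged in another of the 7 genes. The share was 3.62% in Myh3, 0.201% in Myh7 and 0 in Myh7b. The sources used here do not give how reads with several alignments were counted. The levels of the fast genes and of Myh8 are therefore the more uncertain ones. Of the 50-base stretches of Myh8, 7.26% occurred in Myh4, which had 1235465 to 2103533 counts per library against 431 to 655 for Myh8. The ratio of Myh8 to Myh4 counts varied 1.67-fold over the libraries. Whether reads from Myh4 entered the Myh8 level was not tested. Other sarcomeric chains were low: Myh13 lay at 1.47 to 6.29 CPM, Myh6 at 0.846 to 4.40 CPM, and Myh15 had at most 7 counts in any library.

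Across the 12 libraries the members varied in a linked way, tested here for 6 pairs on log2 CPM with p-values adjusted over the 6. Myh7 and Myh2 rose and fell together (Pearson r = 0.87, permutation p = 0.00282; Spearman rho = 0.85, permutation p = 0.00318), as did Myh7 and Myh7b (r = 0.83, p = 0.0029; rho = 0.84, p = 0.00318, both permutation) and Myh2 and Myh1 (r = 0.85, p = 0.0029; rho = 0.79, p = 0.0062, both permutation). Myh4 ran against Myh1 (r = −0.75, p = 0.00583; rho = −0.75, p = 0.0106, both permutation) and against Myh2 (r = −0.70, p = 0.0114; rho = −0.72, p = 0.0133, both permutation). Myh3 and Myh8, the 2 developmental genes, were not shown to be related (r = 0.17, rho = 0.17, permutation p = 0.591 and 0.588), but on log2 shares in place of CPM r was 0.67 (permutation p = 0.0165).

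Leaving out the 2 libraries farthest from the median of the first gene gave r = 0.84 for Myh7 and Myh2, 0.79 for Myh7 and Myh7b, 0.84 for Myh2 and Myh1, −0.72 for Myh4 and Myh1, −0.67 for Myh4 and Myh2, and 0.02 for Myh3 and Myh8. The first 5 relations also held after each group's mean was subtracted, with r = 0.85, 0.86, 0.82, −0.73 and −0.62 in that order. They were therefore present between libraries of 1 group and not only between groups. Within groups, young sedentary library 2 and old sedentary library 4 were low in Myh7, Myh2 and Myh1 at once and high in Myh4.

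**Figure D4:**
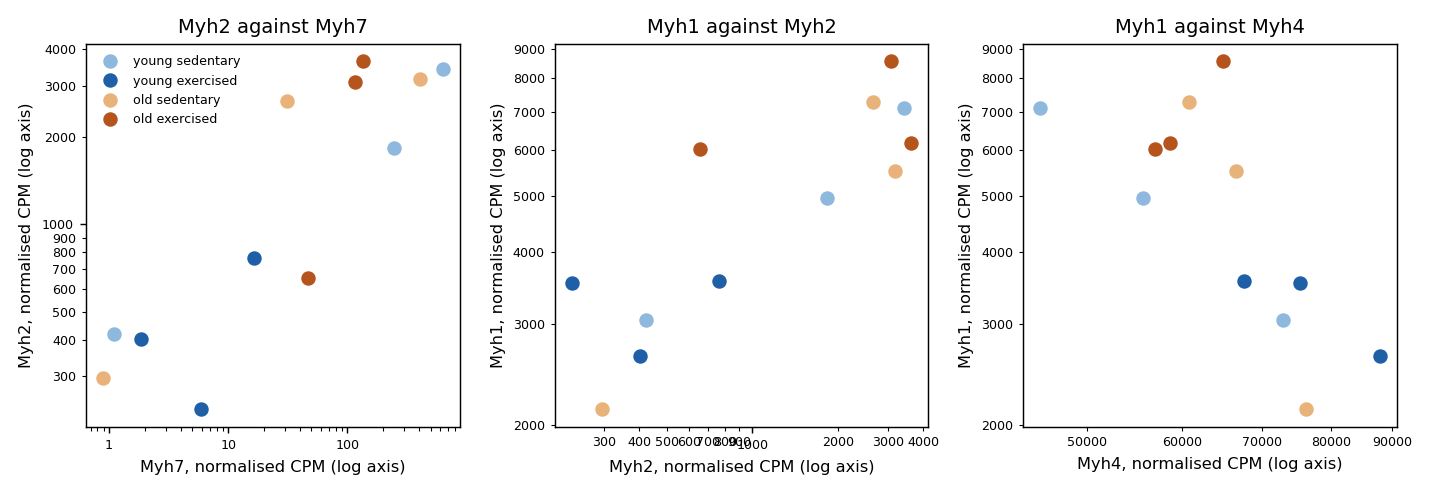
Normalised CPM (log axes) of Myh2 against Myh7, of Myh1 against Myh2 and of Myh1 against Myh4; each point is 1 of the 12 libraries, coloured by group. The first 2 panels slope upward (r = 0.87 and 0.85) and the last slopes downward (r = −0.75), and libraries of the same group lie far apart on each axis.

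The genes whose log2 CPM followed a member most closely over the 12 libraries are given as a description, without a test. Closest to Myh7 were Myl2 (r = 0.99), Tnnc1 (0.99), Tnnt1 (0.99), Tnni1 (0.98) and Myl3 (0.96), which encode the slow regulatory and essential light chains and the slow troponin subunits. Myh2 was followed by Myoz2 (0.97), Mb (0.95), Mpped2 (0.95), Casq2 (0.95) and Chst3 (0.94), of which Mb encodes myoglobin and Myoz2 a slow Z-disc protein. Myh1 was followed by Mrpl47 (0.93), Casq2 (0.92), Padi2 (0.91), Cd300lg (0.90) and Pdzd3 (0.90). For Myh4 they were Tmem63a (0.94), Myoz1 (0.94), Sra1 (0.93), Tmod1 (0.92) and Drap1 (0.92), with Myoz1 a fast Z-disc protein.

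For Myh7b the list was Klhl34 (0.91), Tpm3 (0.91), Ldhb (0.91), Dlat (0.90) and Atp5h (0.90), which includes the slow tropomyosin Tpm3 and the oxidative lactate dehydrogenase subunit Ldhb. For Myh3 it was Snrpd3 (0.93), Galt (0.92), Wnt5b (0.91), Gbe1 (0.91) and Hspb7 (0.91), and for Myh8 Snx11 (0.93), Exoc1 (0.91), Ess2 (0.89), Ccnk (0.89) and Nol12 (0.89). None of the 18 genes of regenerating or denervated fibres was among the 5 closest to Myh3 or to Myh8. The highest r with that list was 0.903 for Myh3, just below the 0.905 of Hspb7, and 0.204 for Myh8. With Myh3, r was positive for 14 of 18 and negative for 4 (median 0.505). With Myh8 it was positive for 10 and negative for 8 (median 0.0143). Against the 15 slow-fibre partners, r was positive for 15 of 15 with Myh7, Myh7b, Myh2, Myh1 and Myh3, and negative for 15 of 15 with Myh4. The median r over those partners was 0.92 for Myh7, 0.84 for Myh7b, 0.83 for Myh2, 0.81 for Myh1, 0.67 for Myh3 and −0.78 for Myh4. With the 15 fast-fibre partners the median r was 0.68 for Myh4 and 0.40 for Myh8. It was −0.53 for Myh1, −0.52 for Myh2, −0.55 for Myh7, −0.48 for Myh7b and −0.48 for Myh3. On this measure Myh1 and Myh2, both counted as fast isoforms, lay on the side of the slow partners.

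The neighbours of the fast cluster were looked up after the members' values were seen. The antisense gene 9430073C21Rik (chromosome 11, 67195680 to 67199234, minus strand) overlaps the end of Myh2, with 237 exonic bases in common, and followed Myh2 closely at 2.01 to 31.5 CPM (r = 0.97). Myhas, the antisense gene whose exons share 515 bases with Myh1 (67211256 to 67237573, minus strand), lay at 51.3 to 89.4 CPM and did not follow Myh1 (r = −0.03), Myh4 (r = 0.11) or Myh2 (r = 0.02). No strand setting is given for the counting, so reads from a gene and from its antisense partner may not be separable where exons overlap.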

How the data were processed

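RNA of 12 quadriceps libraries, 3 per group, was analysed from the deposited counts per gene, which are whole read counts made by the authors with featureCounts, per the submitters' processing notes and the column layout of the file headers. The tools named in the submitters' processing notes are STAR 2.5.2b, Subread 1.5.2, Trimmomatic 0.36, bcl2fastq 2.20.0.422 and DESeq2, with the build GRCm38. Annotation release, strand and multi-mapping settings: not given in the sources used here. Symbols were found for 48970 of 49315 gene identifiers, and lengths are those of the files.

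The 7 members and all lists were chosen with earlier results of these data known. Genes were kept by filterByExpr (minimum count 10, minimum total 15), scaled by TMM and fitted with edgeR 4.0.16 (R 4.3.3) by robust quasi-likelihood, each group having its own coefficient, with 8 residual degrees of freedom. The 7 comparisons were Benjamini-Hochberg adjusted over 15304 genes. The SE is the absolute log2 fold change over the square root of the F statistic. The test was checked on simulated counts. Shares were compared by exact permutation within strata (400 relabellings, smallest p 0.005), because 3 against 3 cannot go below 0.1. These 14 p-values are unadjusted. Correlations used log2 CPM with a prior count of 2 and 100000 permutations.

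Every member is given by its levels. Its fold change is given where the unadjusted p was under 0.05 or the groups did not overlap. From a list, the 3 members with the smallest p are named, and 5 genes most like each member (mean of at least 1 CPM, no predicted genes). Replicate numbers 4, 5 and 6, shared by both old groups, did not pair the libraries. Alternatives were DESeq2 1.42.0, limma voom 3.58.1, other scalings, no filter, an Xist covariate, only the groups compared and leaving out libraries.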

Additional observations from a re-analysis of the deposited data

How the results depend on the processing

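Of the 49 fold changes of 7 members in 7 comparisons, 16 reversed under at least 1 alternative, and none of those had passed the threshold. The 12 given with their alternatives here or in the report did not reverse. The number of members called in old against young exercised muscle, 1, was 2 under DESeq2 (Myh3 and Myh2) and 2 with only the groups compared (Myh3 and Myh1), 0 under limma voom, 0 with no filter on low counts, 0 without young sedentary libraries 1 and 2 and old exercised library 6 together (an alternative chosen after seeing the data), and 0 to 1 when 1 library was left out. For age averaged over both treatments, 1 became 0 with no filter, 0 without those 3 libraries, and 1 to 2 when 1 library was left out. The other 5 comparisons kept 0 of 7 under all alternatives run. The cause of these shifts was not tested.

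When 1 library was left out, the exercise difference in the Myh4 share ranged from −0.279 to 3.49 percentage points, the age difference in the Myh3 share from 0.00692 to 0.00996 points (exact permutation p from 0.005 to 0.06), and r of Myh3 and Myh8 from −0.0931 to 0.351. Without the 3 libraries the Myh3 share difference was 0.00617 points (exact permutation p = 0.175). On log2 shares in place of CPM, r of Myh3 and Myh8 was 0.673 (permutation p = 0.0165). The other 5 correlations kept their direction and stayed under 0.05 in every alternative run.

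The replicate block for exercise in old mice called 0 of 7 members, as without it. Same-numbered old libraries deviated from their group means with r of −0.104, 0.0386 and 0.0771, and not every library correlated best with its own number. Counts of list genes that moved by over 1.5 times were, in old against young exercised muscle, fast partners lower 3 and slow partners higher 7 with only the groups compared (6 and 2 in the reported fit), regulators lower 2 with only the groups compared and 1 without the 3 libraries (5 in the reported fit), regulators higher 3 under DESeq2 and 2 each with plain library totals, the Xist covariate and only the groups compared (1 in the reported fit), and genes of regenerating fibres higher 2 without the 3 libraries (6 in the reported fit). The 1 gene of that list called lower there became 0 with no filter, with only the groups compared and without the 3 libraries. In sedentary mice the number higher was 4, against 2 with plain library totals, 1 with no filter, 1 with the Xist covariate and 0 without the 3 libraries. Depth limits Myh3 and Myh7b most, at 58 to 351 and 23 to 228 counts per library.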
